A study of Mus musculus with 9 samples.

Results

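The genes described here mark enteric neurons, the nerve cells that lie within the wall of the gut. They are 31 genes of neuron identity, the neuronal cytoskeleton, vesicle release, transmitter synthesis and neuropeptides, chosen by name and found by symbol among the 22262 genes with a count in any of the 9 mouse colon libraries. All 31 had a count in at least 1 mouse and 29 passed the filter on low values among the 17441 genes tested. The colon came from wild-type female C57BL/6N mice aged 12 months without further treatment, 4 from a standard environment (WT_SE, numbered 1, 2, 3 and 5) and 5 from an enriched environment (WT_EE, numbered 1 to 5). Standard cages held small groups, whereas enriched cages were larger, housed more females together and contained extra nesting material, changing objects, tunnels and running wheels from weaning on. The question was whether life in the enriched environment goes along with another level of these genes in the colon. Cage and environment cannot be told apart, since a cage belonged to 1 environment and the labels do not name cages.

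Enteric neurons sit in 2 layers of ganglia, the myenteric plexus between the muscle coats and the submucosal plexus under the epithelium. Excitatory motor neurons release acetylcholine and tachykinins onto smooth muscle, inhibitory motor neurons release nitric oxide and vasoactive intestinal peptide, and secretomotor neurons drive the epithelium. Neurons are a small part of the gut wall, and their cell bodies and short local axons are taken along when a piece of colon is collected. Fibres that enter from outside the gut, such as the noradrenaline-containing sympathetic axons, leave their cell bodies and most of their messenger RNA elsewhere.

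RNA was read from a 2 to 3 cm piece of the upper colon by 3′ messenger RNA sequencing with unique molecular identifiers, so that a count stands for 1 molecule, whatever its length. Totals ranged from 295535 to 454043 counts per mouse. Levels are given in CPM (count-per-million) after normalization for library composition, and at this depth the floor of 3 counts stood at 6.50 to 10.4 CPM. Because a piece of the whole wall was used, fewer neurons and less RNA per neuron cannot be told apart. WT_SE mice 1 and 3 differ from all other mice in the ending of their library names (L3 against L2), so 2 of the 4 standard mice and no enriched mouse carry it. The sources used here do not say what the ending stands for.

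The 31 genes together gave 3424 counts, between 260 and 496 per mouse, and the 5 genes with the most counts held 40.7% of them. Ncam1, a neural cell adhesion molecule, had the highest mean level over the 9 mice at 116 CPM. It was followed by Stmn2, a microtubule regulator of growing axons, at 82.1 CPM, by Tac1, the precursor of substance P, at 79.9 CPM, and by the RNA-binding protein gene Elavl4, which encodes the neuronal protein HuD, at 74.3 CPM. The 95% intervals for these genes' environment difference all included 0, and the levels of Stmn2, Tac1 and Elavl4 overlapped widely between mice. Next in order of mean level came Scg2 at 67.3 CPM and Uchl1 at 67.1 CPM, then Nos1 at 58.6 CPM. The lowest end was made up of 5 genes with at most 3 counts in every mouse, namely Phox2a, Syp, Th, Dbh and Npy, for which no fold change is given.

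Neuronal genes of the enteric type were measured in every mouse, with 27 to 29 of the 31 genes detected. Th and Dbh, which make dopamine and noradrenaline, were at or near 0. Th had a single count in all 9 libraries, in WT_EE mouse 4, and Dbh had at most 1 count in a mouse. Counts of 0 allow a level of up to 6.50 to 10.4 CPM per mouse, and this limit covers counting error only.

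Between the environments, 2 of the 29 genes tested passed the study's limit of an unadjusted p-value under 0.05, both higher in WT_EE and none lower, which is 6.90% of the genes tested. Over all genes the same limit called 7.64%, with 4.30% higher and 3.34% lower, so the share among the neuronal genes was near the background. The 2 genes were Ret and Nos1. After Benjamini-Hochberg adjustment over all genes with edgeR none of the 29 was called, against 0.0401% of all genes. Without adjustment, DESeq2 also called 2 of the 29, against 3.69% of all genes, as did limma-voom, against 7.79%. The normalized levels of the 2 groups overlapped in each of the 31 genes, whereas 2.59% of all genes were without overlap.

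Most fold changes lay above 0 without passing the test. The 29 fold changes include those of Phox2a and Npy, above 0, and Syp, below 0, which had at most 3 counts in every mouse. The sign was positive in 21 of 29 genes, against 51.0% of all genes. The median was 0.23 on the log2 scale against 0.0096 over all genes. This median was close to 0, at -0.0086, once the library-name ending was a term of the fit, and ranged from 0.03 to 0.57 when each mouse was left out in turn. The lowest value came without WT_SE mouse 1 and the highest without WT_SE mouse 2.

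The number called depended on the mice and terms in the fit. None of the 29 genes was called with the library-name ending as a term (3.93% of all genes) or with the L2 libraries only (3.96%). Without WT_SE mouse 2, 6 genes were called, Ret, Nos1, Snap25, Uchl1, Penk and Scg2, all higher in WT_EE (9.19% of all genes). Without WT_EE mouse 5, 5 genes were called, Ret, Nos1, Uchl1, Syt1 and Phox2a, again all higher (7.13%), with Phox2a at no more than 3 counts in any mouse. The count was 3 without WT_SE mouse 5 (9.15%), WT_EE mouse 1 (8.35%) or WT_EE mouse 3 (7.83%), and 1 without WT_SE mouse 3 (5.19%) or WT_EE mouse 4 (6.42%).

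**Figure D1:**
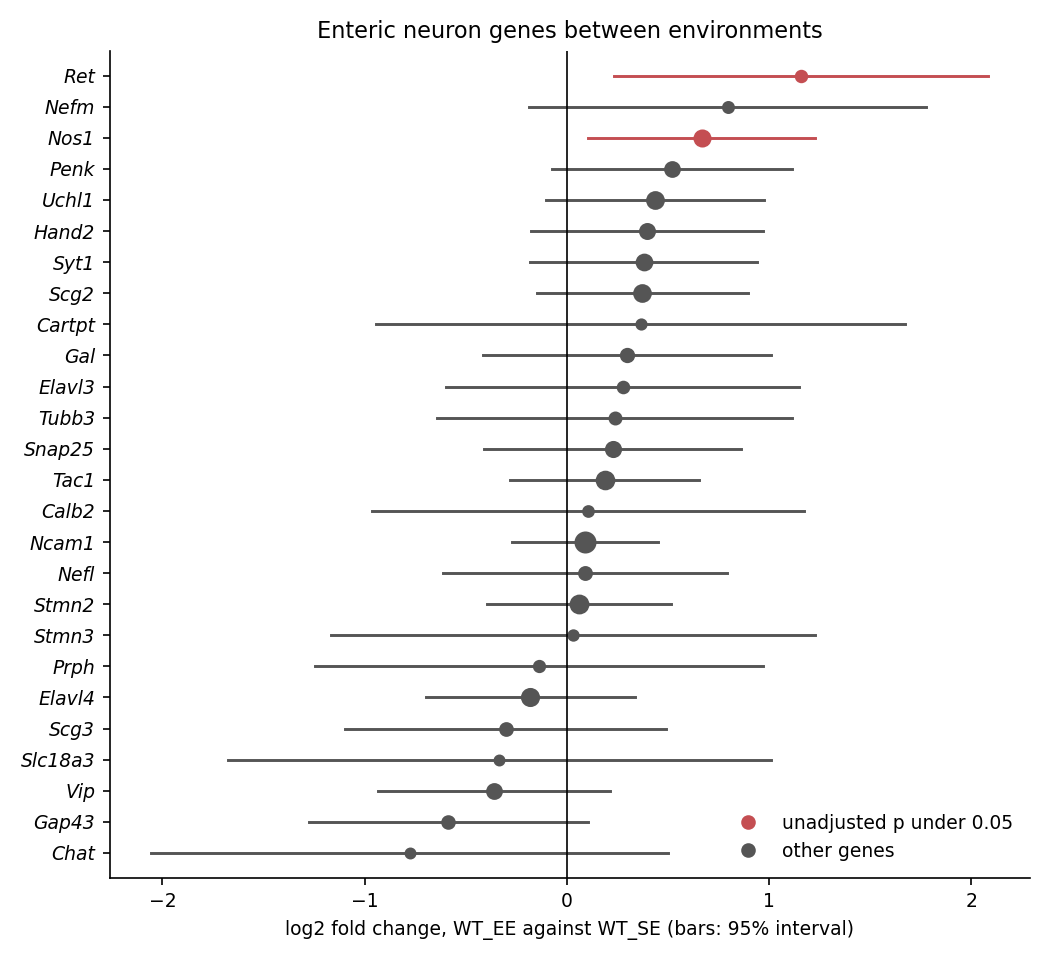
Log2 fold change of WT_EE (5 mice) against WT_SE (4 mice) for the neuronal genes with more than 3 counts in at least 1 mouse, with bars for the 95% interval and larger points for genes with more counts. The intervals of Ret and Nos1 lie above 0, and every other interval includes 0.

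Among the 5 identity genes, Ret, the receptor tyrosine kinase through which the ligand Gdnf directs the growth and survival of enteric neurons, had 2, 5, 2 and 4 counts in WT_SE mice 1, 2, 3 and 5 and 9, 8, 10, 8 and 6 counts in WT_EE mice 1 to 5. Every enriched mouse had more counts than any standard mouse. In normalized levels the groups touched, since WT_SE mouse 2 and WT_EE mouse 5 both stood at 13.9 CPM, and WT_SE mice 1 and 3 were at or under the floor. Standard mice averaged 9.19 ± 3.95 CPM (SD, n = 4), enriched mice 21.5 ± 5.30 CPM (SD, n = 5). This gave a log2 fold change of 1.16 ± 0.46 (SE), with an unadjusted p of 0.0154 and an adjusted p of 0.480 in edgeR. An exact permutation test over the 126 ways to split the mice gave p = 0.0238, where 0.00794 is the smallest value possible. All permutation p-values here are two-sided and unadjusted. The call was lost without WT_SE mouse 1, with a log2 fold change of 0.95, and with the library-name ending as a term, with 0.75. Ret lies on the minus strand of chromosome 6 (GRCm38, 118151745 to 118197718).

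Hand2, a transcription factor needed for the differentiation of enteric neurons, stood at 28.7, 52.8, 40.5 and 35.5 CPM in WT_SE and at 28.1, 73.0, 47.7, 64.7 and 53.1 CPM in WT_EE. WT_EE mice 2 and 4 were the highest and WT_EE mouse 1 the lowest of all mice. Its log2 fold change was 0.40 ± 0.28 (SE, exact permutation p = 0.190), and without WT_EE mouse 1 it was 0.58 and passed the limit. Elavl4 spread widely within the enriched group. Its levels were 70.3, 91.7, 81.0 and 68.2 CPM in WT_SE, and 36.8, 118, 71.5, 89.3 and 41.6 CPM in WT_EE. The enriched group held both the highest mouse (2) and the lowest (1 and 5), and the log2 fold change was -0.18 ± 0.26 (SE, exact permutation p = 0.770). Elavl3, the gene of the related protein HuC, had 3 to 12 counts per mouse (exact permutation p = 0.484). Phox2a, a transcription factor of autonomic neurons, had 1 count in the 4 standard mice together and 0 to 3 counts in the enriched mice.

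None of the 8 cytoskeletal genes passed the test. Stmn2 was measured at 93.8, 91.7, 47.2 and 81.8 CPM in WT_SE and at 67.1, 118, 88.8, 92.4 and 57.7 CPM in WT_EE. WT_SE mouse 3 was the lowest and WT_EE mouse 2 the highest, and the log2 fold change of 0.06 had a 95% interval from -0.40 to 0.51. Uchl1, a ubiquitin hydrolase abundant in neurons (PGP9.5), gave 39.1, 83.4, 57.4 and 43.6 CPM in WT_SE and 82.3, 73.0, 82.3, 108 and 34.6 CPM in WT_EE. WT_SE mouse 2 and WT_EE mouse 5 each stood with the other group. For Uchl1 the log2 fold change was 0.43 ± 0.27 (SE, exact permutation p = 0.246), and it was 0.70 without WT_SE mouse 2 and 0.64 without WT_EE mouse 5, past the limit in both cases.

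The remaining cytoskeletal genes had fewer counts. Gap43, a growth-associated protein of axon endings, had 9 to 12 counts per standard mouse and 4 to 10 per enriched mouse. Its mean was 30.1 ± 4.65 CPM against 19.8 ± 5.56 CPM, the log2 fold change was -0.59 ± 0.34 (SE, p = 0.0936 in edgeR), and the exact permutation p was 0.0397. Nefm, a neurofilament subunit, had 2 to 5 counts per standard mouse and 4 to 9 per enriched mouse, with a log2 fold change of 0.79 ± 0.48 (SE, p = 0.109) and an exact permutation p of 0.0476. For both genes the 2 tests lay on different sides of the limit of 0.05, and neither permutation p was adjusted. Nefl, Tubb3, Prph and Stmn3, which encode a second neurofilament, neuronal tubulin, peripherin and another stathmin, had 0 to 14 counts per mouse and exact permutation p from 0.579 to 0.937.

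None of the 7 synaptic and secretory genes passed the test. Snap25, a protein of the vesicle fusion machinery, ranged over 15.6, 83.4, 33.7 and 40.9 CPM in WT_SE and over 41.1, 76.5, 56.3, 49.3 and 36.9 CPM in WT_EE. The standard group held both extremes, mouse 1 at the bottom and mouse 2 at the top. Its log2 fold change was 0.23 ± 0.31 (SE, exact permutation p = 0.556), turned to -0.07 without WT_SE mouse 1 and to -0.28 with the library-name ending as a term, and was 0.76, past the limit, without WT_SE mouse 2. Syt1, the calcium sensor of vesicle release, stood at 36.5, 66.7, 40.5 and 43.6 CPM in WT_SE and at 52.0, 86.9, 62.8, 83.2 and 30.0 CPM in WT_EE. WT_EE mice 2 and 4 were highest and WT_EE mouse 5 lowest, and the log2 fold change of 0.38 (exact permutation p = 0.254) became 0.57 and passed the limit without WT_EE mouse 5.

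Scg2, a granin of dense-core vesicles, gave 46.9, 91.7, 54.0 and 35.5 CPM in WT_SE and 49.8, 97.4, 80.2, 92.4 and 57.7 CPM in WT_EE. The same WT_SE mouse 2 stood among the high enriched mice, and without it the log2 fold change went from 0.37 (exact permutation p = 0.254) to 0.70, past the limit. Ncam1 had the narrowest interval of all 29 genes. It was measured at 96.4, 100, 101 and 147 CPM in WT_SE and at 119, 132, 104, 136 and 109 CPM in WT_EE, with WT_SE mouse 5 highest. Its log2 fold change was 0.09, with a 95% interval from -0.27 to 0.45. Scg3, a second granin, and the calcium-binding protein gene Calb2 had 1 to 16 counts per mouse and exact permutation p of 0.619 and 0.825. Syp, the vesicle protein synaptophysin, had 0 to 3.

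Among the 5 transmitter genes, Nos1, the neuronal nitric oxide synthase of inhibitory motor neurons, stood at 59.9, 55.6, 16.9 and 38.2 CPM in WT_SE and at 52.0, 90.4, 56.3, 98.6 and 60.0 CPM in WT_EE. WT_EE mice 2 and 4 were above all others, WT_SE mouse 3 had only 5 counts, and the remaining mice of the groups overlapped. Standard mice averaged 42.6 ± 19.6 CPM (SD, n = 4), enriched mice 71.5 ± 21.4 CPM (SD, n = 5). Nos1 had a log2 fold change of 0.67 ± 0.28 (SE), with an unadjusted p of 0.0213 and an adjusted p of 0.522 in edgeR, while the exact permutation test gave p = 0.111. The call was lost in 7 of 23 alternatives, among them those without WT_SE mouse 3 (log2 fold change 0.44) and without WT_EE mouse 4 (0.53). The fit without WT_EE mouse 4 is counted more than once in these numbers, since it is also the fit on the mice with shared numbers. Nos1 lies on the plus strand of chromosome 5 (GRCm38, 117781032 to 117958840), where the predicted genes Gm37028 and Gm26995 overlap it, so reads could not be assigned with certainty where the counting rules are not known.

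Chat, the enzyme that makes acetylcholine, and Slc18a3, the transporter that fills vesicles with it, had few counts. Chat had 3, 8, 2 and 2 counts in WT_SE and 1, 2, 6, 1 and 2 in WT_EE, so only 1 mouse of each group (mouse 2 and mouse 3) was above 3 counts. Its log2 fold change was -0.78 with a 95% interval from -2.05 to 0.50. Slc18a3 lies within Chat on the same strand of chromosome 14, so their reads may be split between them, and had 0 to 7 counts per mouse (exact permutation p = 0.770). No difference in these cholinergic genes was detected.

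**Figure D2:**
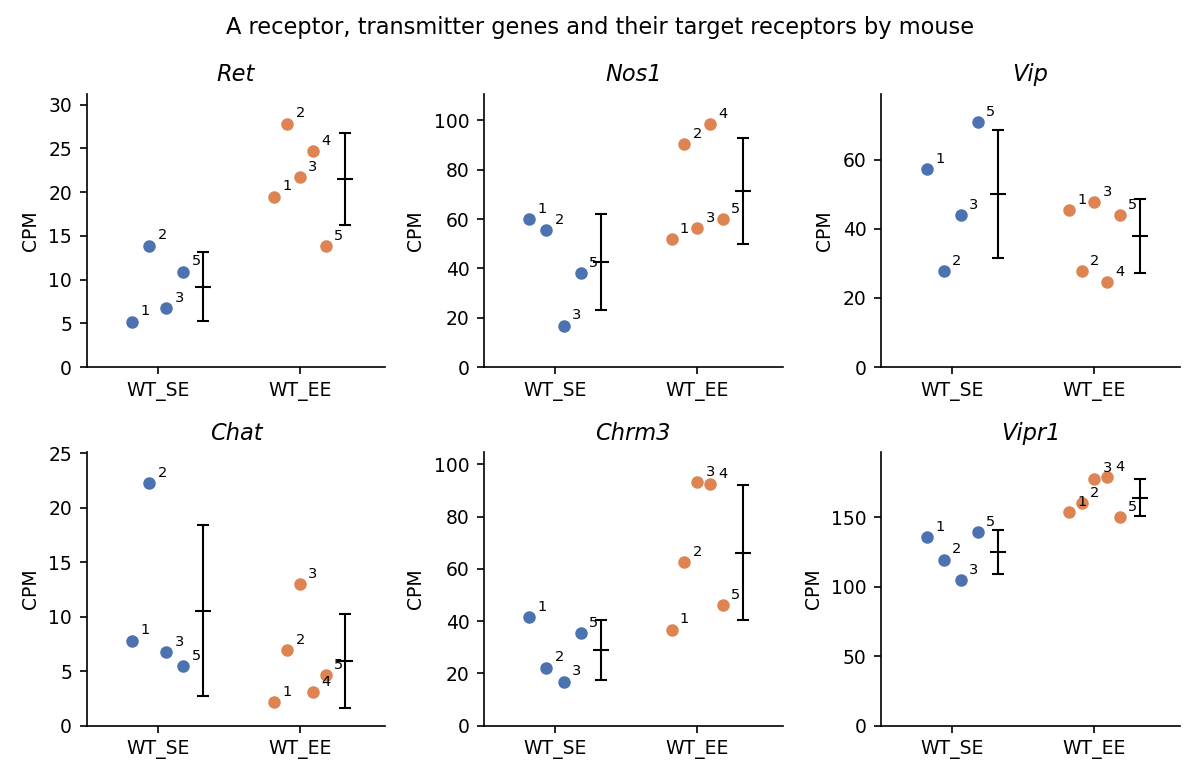
Normalized level (CPM) of Ret, Nos1, Vip, Chat and the receptor genes Chrm3 and Vipr1 in each mouse, numbered as in the labels, with the mean and SD of each group (WT_SE 4 mice, WT_EE 5 mice) as black bars. Nos1 is highest in WT_EE mice 2 and 4, Vip is lowest in those mice and WT_SE mouse 2, and of these 6 genes only Vipr1 has groups without overlap.

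None of the 6 peptide genes passed the test. Vip, the vasoactive intestinal peptide that many nitric oxide neurons and secretomotor neurons also make, stood at 57.3, 27.8, 43.9 and 70.9 CPM in WT_SE and at 45.5, 27.8, 47.7, 24.6 and 43.9 CPM in WT_EE. The lowest 3 mice were WT_SE mouse 2 and WT_EE mice 2 and 4, the same mice that were highest in the summed level of all 31 genes. For Vip the log2 fold change was -0.36 ± 0.28 (SE, exact permutation p = 0.302), opposite in sign to that of Nos1, and it kept its sign in all 23 alternatives without a call in any of them. Tac1 gave 49.5, 91.7, 57.4 and 92.7 CPM in WT_SE and 77.9, 115, 60.7, 105 and 69.3 CPM in WT_EE. WT_EE mice 2 and 4 were again highest, and the log2 fold change was 0.19 ± 0.23 (SE, exact permutation p = 0.421).

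Penk, the precursor of the enkephalins, stood at 15.6, 44.5, 33.7 and 46.4 CPM in WT_SE and at 43.3, 59.1, 34.7, 55.4 and 62.3 CPM in WT_EE. WT_SE mouse 1 was far below the rest, and the log2 fold change of 0.52 ± 0.29 (SE, exact permutation p = 0.119) passed the limit in 3 of 23 alternatives. Gal, the neuropeptide galanin, gave 20.8, 38.9, 30.4 and 16.4 CPM in WT_SE and 21.7, 41.7, 39.0, 49.3 and 16.2 CPM in WT_EE, with wide overlap and an exact permutation p of 0.413. Cartpt had 0 to 6 counts per mouse (exact permutation p = 0.651), and Npy had 2 counts in WT_EE mouse 1 and 0 elsewhere.

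**Figure D3:**
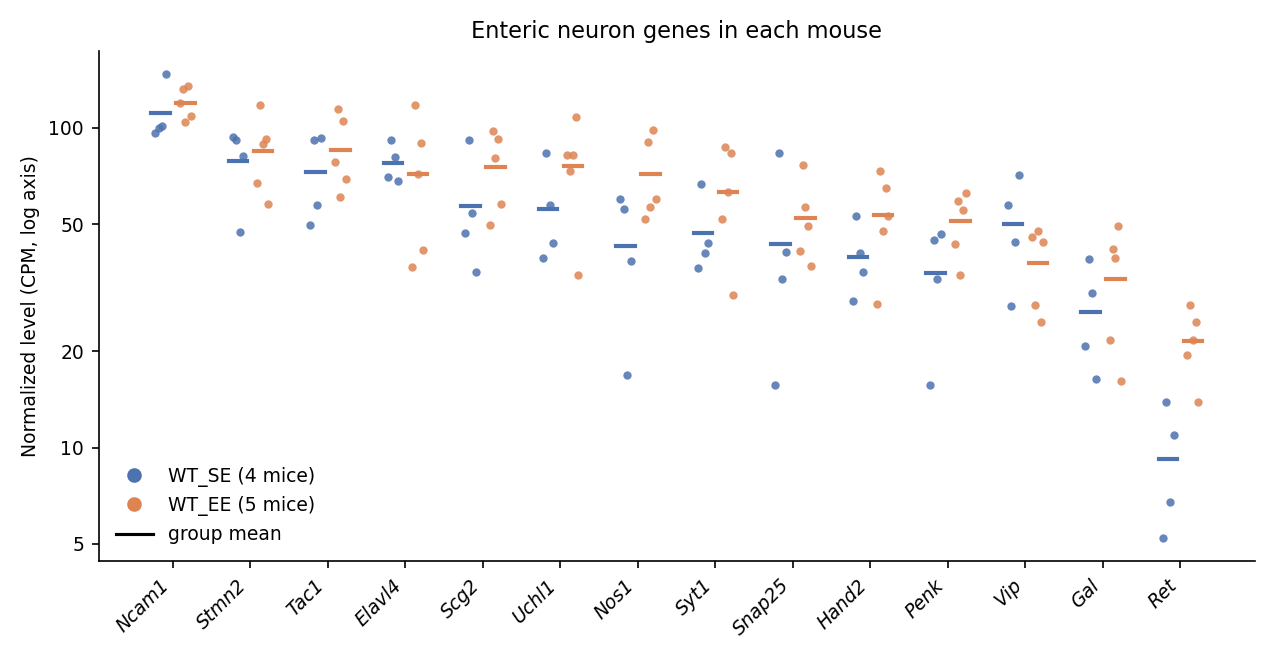
Normalized level (CPM, log axis) of the 14 neuronal genes with a mean of at least 10 counts or an unadjusted p under 0.05, each point 1 mouse and each line a group mean (WT_SE 4 mice, WT_EE 5 mice). The groups overlap in every gene, and Ret has the widest gap between group means on this axis.

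The neuronal genes also differed between mice of the same environment. Their summed level was 766, 1212, 877 and 933 CPM in WT_SE and 892, 1377, 1075, 1309 and 838 CPM in WT_EE. WT_SE mouse 2 stood with WT_EE mice 2 and 4 at the top, and WT_SE mouse 1 and WT_EE mouse 5 at the bottom. Standard mice averaged 947 ± 190 CPM (SD, n = 4) and enriched mice 1098 ± 241 CPM (SD, n = 5), a difference of 151 CPM that was smaller than either SD. The difference was 25.9 CPM with the L2 libraries only, and with 1 mouse left out it was 239 CPM without WT_SE mouse 2, 90.8 without WT_SE mouse 1, 81.6 without WT_EE mouse 2 and 98.5 without WT_EE mouse 4. Of the 21 genes with a mean of at least 5 counts, 19 were above their own median in WT_EE mouse 4, 16 in WT_EE mouse 2 and 14 in WT_SE mouse 2, against 3 in WT_SE mouse 1 and 5 each in WT_EE mice 1 and 5. This count was chosen after the values were seen. For the 13 genes with a mean of at least 10 counts, the variance among mice of the same environment was compared with that of pure counting. The median ratio (chi-square per degree of freedom within the groups) was 2.14, against 1.31 over all 8493 genes with as many counts. Snap25, at 3.90, and Elavl4, at 3.43, spread the most among those 13.

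Other cells of the colon wall also differed between these mice. The summed level of 10 smooth muscle genes was 2521 to 3246 CPM in WT_SE and 2525 to 4565 CPM in WT_EE, highest in WT_EE mice 2 and 4 at 4565 and 4435 CPM. Of those 10 genes 4 were called higher in WT_EE, led by Smtn, Des and Lmod1, and none lower, against 4.30% higher and 3.34% lower over all genes. All 4 were highest in WT_EE mice 2 and 4, so they are not 4 separate results. WT_EE mice 1 and 3, at 2635 and 2525 CPM, lay within the range of the standard mice. With the smooth muscle level as a term of the fit, Nos1 had a log2 fold change of 0.39 and was no longer called, while Ret was (7.42% of all genes called). In WT_SE mouse 2, where the neuronal sum was 0.474 of the smooth muscle sum, muscle was low at 2554 CPM, and the ratio was 0.261 to 0.474 over all mice. The level of Slc10a2, a bile acid transporter that is highest near the start of the colon, ran from 10.4 to 371 CPM. It was 232 to 371 CPM in WT_SE mice 2 and 3 and WT_EE mice 1 and 3, and 10.4 to 67.7 CPM in the other 5. With Slc10a2 as a term of the fit, chosen after its values were seen, Nos1 had a log2 fold change of 0.44 and was again not called, while Ret was (6.67% of all genes called). With the summed posterior Hox genes, the planned measure of position, as a term, Nos1 (0.63) and Ret (1.15) were both called (8.25% of all genes). This sum does not rank the mice by position, so the fit cannot decide on position. Hoxb13 was at 0 CPM and Hoxd10 at 10.8 to 61.1 CPM in WT_SE mice 2 and 3 and WT_EE mouse 1. The reverse held in WT_SE mouse 5 and WT_EE mice 2 and 4, with Hoxd10 at 0 CPM and Hoxb13 at 73.9 to 156 CPM. The part of tissue composition and position along the colon in the neuronal values was not tested further.

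Enteroendocrine cells, hormone cells of the epithelium, share Scg2, Scg3, Snap25, Uchl1 and some peptides with neurons. Their 12 marker genes summed to 955 to 1448 CPM in WT_SE and 664 to 1196 CPM in WT_EE, lowest in WT_EE mice 2 and 4, where the neuronal sum was highest. Of the 12 genes, Chga and Chgb were called lower in WT_EE and none higher, against 3.34% lower and 4.30% higher over all genes. Both were lowest in WT_EE mice 2 and 4, so they are not 2 separate results. The exact permutation p was 0.175 for Chga and 0.0794 for Chgb.

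**Figure D4:**
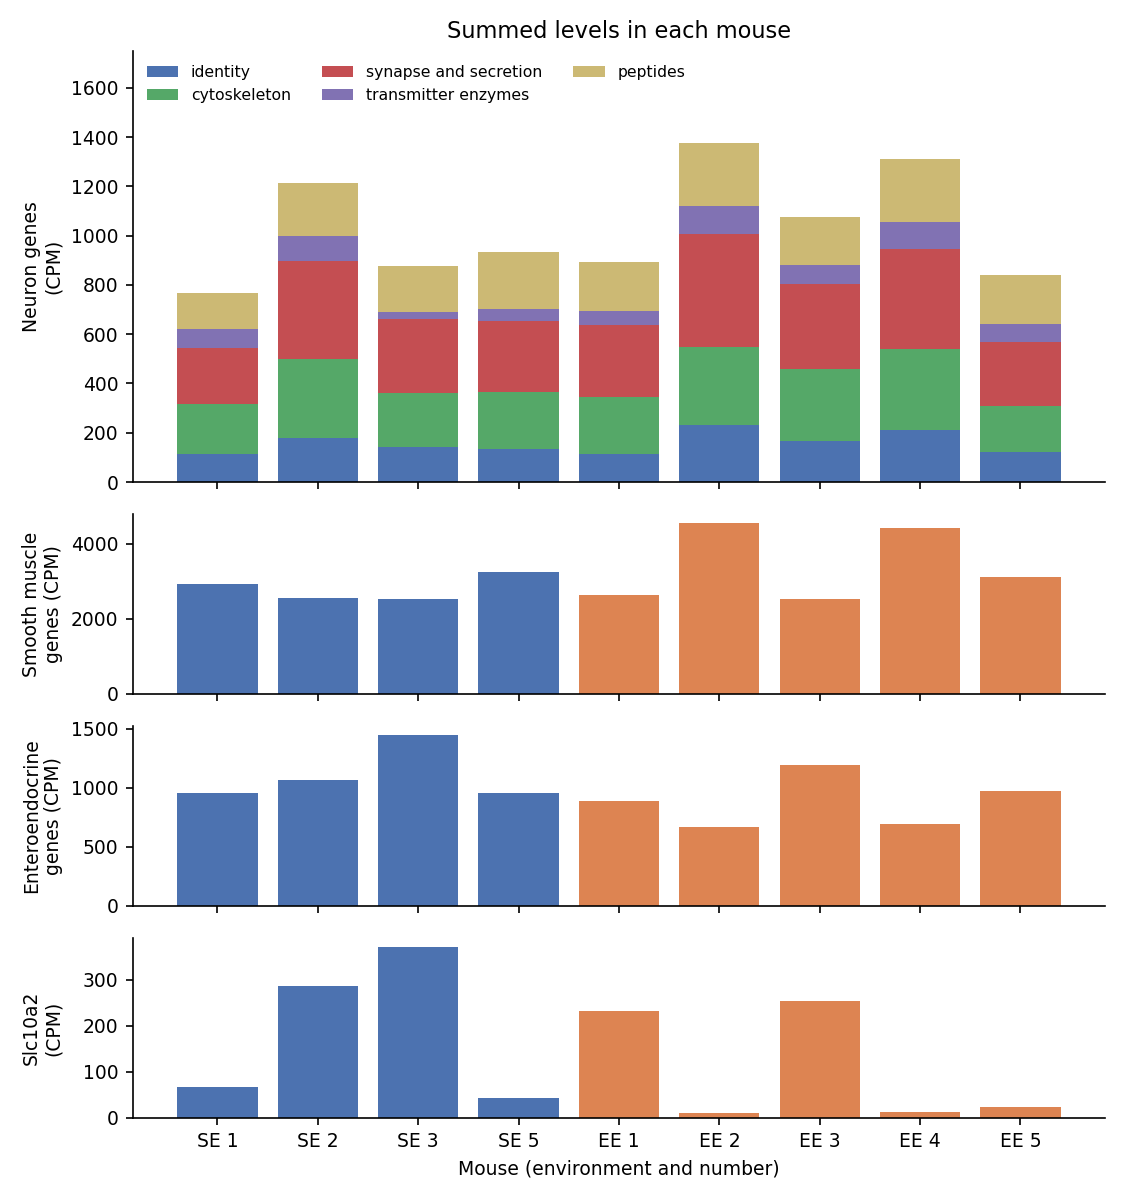
Summed normalized level (CPM) in each mouse of the 31 neuronal genes, stacked by role, and below it of 10 smooth muscle genes, 12 enteroendocrine genes and the proximal colon gene Slc10a2, with WT_SE mice in blue and WT_EE mice in orange in the lower panels. Neuronal sums are highest in WT_EE mice 2 and 4 and WT_SE mouse 2, and only the first 2 of these also have high smooth muscle sums.

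The wider set of neuronal and target genes comprised 74 genes in 6 lists, of which 4 (Slc6a2, Calca, Oprm1 and Oprd1) had no count and 65 were tested. Of these, 5 were higher in WT_EE and none lower, or 7.69%, again near the 7.64% of all genes, and none passed the adjusted limit in edgeR with the filter used. With no filter on low counts Pbx3 and Chrm3 passed it, at adjusted p of 0.0190 and 0.0144, as did Chrm3 without WT_EE mouse 1, at adjusted p of 0.0442. Among 17 tested genes of neuron identity only Pbx3, a homeobox factor of enteric neurons that other cells also make, was called. It had 86.0, 80.6, 50.6 and 106 CPM in WT_SE and 104, 160, 121, 200 and 118 CPM in WT_EE, where WT_SE mouse 5 overlapped with WT_EE mouse 1 alone. Its log2 fold change was 0.75 ± 0.21 (SE, p = 0.000917 and adjusted p = 0.198 in edgeR, exact permutation p = 0.0238), and it was called in all 23 alternatives.

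Among 12 genes of synapse and release only Dpysl3, a regulator of growth cones, was called, or 8.33%, against 7.64% of all genes. It had 87.8 ± 26.5 CPM in WT_SE and 136 ± 25.2 CPM in WT_EE (log2 fold change 0.59, p = 0.00463 in edgeR, exact permutation p = 0.0238). With the library-name ending as a term Dpysl3 was at 0.34 and not called. None of 8 other transmitter and peptide genes was called. Sst, the somatostatin gene shared with enteroendocrine cells, had the most counts of that list, 7 to 43 per standard mouse and 17 to 43 per enriched mouse. None of 10 neuronal receptors and channels was called either, with Chrnb4, a subunit of the ganglionic acetylcholine receptor, at 6 to 12 counts per standard mouse and 1 to 13 per enriched mouse. Its 2 lowest mice, at 1 count each, were WT_EE mice 2 and 4, which had the highest neuronal sums.

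Of 6 trophic ligands 1 was called, or 16.7%, against 7.64% of all genes. This was Bmp2, with which macrophages of the muscle layer signal to enteric neurons (log2 fold change 0.41, p = 0.0229 in edgeR, exact permutation p = 0.135). The call was lost in 12 of 23 alternatives. It was lost without WT_SE mouse 1, WT_EE mouse 2 or WT_EE mouse 4, at 0.31, 0.31 and 0.34. The fit without WT_EE mouse 4 is again counted more than once. Gdnf, the ligand of Ret, had 1 to 7 counts per standard mouse and 3 to 11 per enriched mouse (exact permutation p = 0.786).

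Receptors and effectors in the target tissues of these transmitters gave 2 calls among 12 genes tested. Chrm3, the muscarinic receptor through which acetylcholine contracts gut muscle, stood at 41.7, 22.2, 16.9 and 35.5 CPM in WT_SE and at 36.8, 62.6, 93.2, 92.4 and 46.2 CPM in WT_EE. WT_EE mice 3 and 4 were highest, and WT_SE mouse 1 was the single standard mouse above the lowest enriched one. The log2 fold change was 1.13 ± 0.31 (SE, p = 0.000713, adjusted p = 0.186 in edgeR), called in all 23 alternatives, with an exact permutation p of 0.0476. Other genes overlap Chrm3 on both strands, among them Gm47411 and 9330159N22Rik on its own, so its reads could not be assigned with certainty either. Vipr1, a receptor for vasoactive intestinal peptide, stood at 105 to 139 CPM in WT_SE and 150 to 179 CPM in WT_EE. The log2 fold change was 0.38 ± 0.15 (SE, p = 0.0174 and adjusted p = 0.488 in edgeR), with an exact permutation p of 0.00794, the smallest possible. The groups did not overlap, which this smallest value requires, so these are not 2 separate results. Of all genes 2.59% were without overlap, and Vipr1 was the only such gene among the 65 tested of the wider set. The call of Vipr1 was lost without WT_SE mouse 3, at 0.32, and with the library-name ending as a term, at 0.34.

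Promoter sequence of the neuronal genes was read from RefSeq (GRCm38.p6), as 250 bases before to 50 bases after each start site, for the 22 of 31 genes in that table. The search covered 12 motifs on both strands, namely the cyclic AMP response element TGACGTCA and its shorter form TGACG, the RE1 parts GGACAGCG with TTCAGCACC, the E-boxes CAGCTG with CATCTG, the homeodomain core TAATTA, the TATA box TATAAA, the Sp1 letters GGGCGG, and 3 longer ones, the NRF1 motif, a Phox2-type homeodomain motif and the joined RE1 motif of REST. The motif shown, TGACGTCA, was picked after the shares of all 12 were seen, so its share is a description only. It reads the same on both strands and contains TGACG, and it was found in 3 of the 22 genes (13.6%) against 2.03% of the 27025 genes in the table. The shorter TGACG was in 13 of the 22 genes (59.1%) against 23.0%, and GGGCGG in 13 (59.1%) against 38.2%. CATCTG was in 6 genes (27.3% against 19.2%), CAGCTG in 4 (18.2% against 18.3%), TAATTA in 3 (13.6% against 6.12%) and TATAAA in 3 (13.6% against 15.7%), while GGACAGCG was in 1 gene and so was TTCAGCACC. The 3 longer motifs were in none of the 22. The 3 windows that hold it are shown to let the letters around the motif be compared between a much counted gene, Scg2, and the rarely counted Cartpt and Th, with the motif in capitals and the gene's own strand from 5′ to 3′.
Scg2, chr1:79440076-79440105, minus strand: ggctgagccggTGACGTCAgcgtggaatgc
Th, chr7:142900022-142900051, minus strand: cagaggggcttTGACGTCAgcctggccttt
Cartpt, chr13:99900777-99900806, minus strand: ccggcgggcatTGACGTCAaacggcagcgg
The motif begins 68 bases before the start site in Scg2, 45 in Th and 112 in Cartpt. None of these 3 genes passed the test or, for Th, the filter, and no binding was measured in these samples.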

How the data were processed

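Colon RNA of 9 wild-type mice was analysed. Per the labels and methods, the authors made QuantSeq 3′ FWD libraries, aligned reads with STAR to GRCm38 and deposited molecule counts per gene and mouse, whole numbers without normalization. The submitters' processing notes name fastp 0.20.0, STAR 2.7.0f, featureCounts 1.6.0 and UMI-tools. The counting and strand settings are not given in the sources used here. Gene symbols and positions were taken from GENCODE (mouse, release 21, GRCm38).

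Genes reaching 4 CPM in 1 or more libraries were tested with edgeR 4.0.16 in R 4.3.3 (TMM, quasi-likelihood F test, environment as the only term, Benjamini-Hochberg adjustment over all 17441 genes). Called means an unadjusted p under 0.05, the limit of the study. The common biological coefficient of variation was 15.1%. Single genes were also compared by two-sided exact permutation tests in Python 3.11.15 with scipy 1.17.1. Alternatives used DESeq2 1.42.0, limma-voom (limma 3.58.1), other normalizations and filters, covariates, the mouse number as a block and each mouse left out. The steps were tested on simulated data.

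The neuronal genes, the 6 lists and the cell-type lists were chosen with earlier results of these data known, as were the alternatives. Genes with a mean of at least 10 counts or an unadjusted p under 0.05 are given by mouse. Of each further list, called genes are named (at most 4, or 3 for cell types, by smallest p), otherwise the gene with the most counts. Kit and Ano1 are given in addition, since Kit differed in sign from Etv1. The Slc10a2 term, the fit on the mice of the block without the block, and the alternatives applied to the 6 lists beyond those first planned were added after seeing the data. The fit on the mice of the block without the block is the same fit as that without WT_EE mouse 4. Numbers of alternatives therefore count this fit more than once. Replicates are separate mice. The results for enteric glia are not reported here.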

Additional observations from a re-analysis of the deposited data

Results flagged for a closer look

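In groups of 4 and 5 mice, the highest or lowest mouse stood apart from its group by Dixon's 95% criterion in 2 of the 72 gene or list groups looked at, where chance gives about 3.6. Ncam1 in WT_SE mouse 5 was at 147 CPM, against 96.4 to 101 CPM in the other standard mice. The summed level of the 18 other neuron identity genes in WT_SE mouse 2 was 814 CPM, against 654 to 675 CPM in the other standard mice. WT_SE mouse 2 was also the highest standard mouse for the 31 neuronal genes together.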

How the results depend on the processing

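With main counts of 2 neuronal genes called of 1333 genes in all, the number of neuronal genes called was 0 with the library-name ending as a term (685 genes in all), 0 with only libraries ending in L2 (677) and 0 at an unadjusted p under 0.01 (408). It was 1 with filterByExpr (804), which left 15 of the 31 genes and did not test Ret, 1 with the smooth muscle term, 1 with the Slc10a2 term and 1 in the 8 mice of the block without the block. These 8 mice are all but WT_EE mouse 4, so that fit is the same as the fit without WT_EE mouse 4. DESeq2 called 2 neuronal genes of 643 in all. Leaving out each mouse gave 1 to 6, with 6 without WT_SE mouse 2 (9.19% of all genes), 5 without WT_EE mouse 5 (7.13%) and 1 without WT_SE mouse 3 or WT_EE mouse 4. The median log2 fold change turned to -0.0086 with the library-name ending as a term. The difference in summed level kept its sign, at 25.9 to 239 CPM over the 13 alternatives it was computed for (normalizations, L2 libraries only and mice left out, with no value for the added terms, the block or the other tests) and 81.6 to 239 CPM with a mouse left out. Of the 6 further lists 5 genes were called (7.64% of all genes), and 8 with no filter (7.08%). The number was 3 with the ending term (3.93%) and 3 with L2 libraries only (3.96%). With a mouse left out it was 4 to 13, with 13 without WT_SE mouse 2 (9.19%). It was 9 each without WT_SE mouse 5 (9.15%), WT_EE mouse 1 (8.35%) or WT_EE mouse 5 (7.13%). These calls were higher in WT_EE, except for Map2 with the ending term and with L2 libraries only and Tbx3 without WT_SE mouse 5 or WT_EE mouse 1, which were lower. Over the alternatives the adjusted p ranged from 0.0190 to 0.997 for Pbx3 and from 0.0144 to 0.997 for Chrm3. Apart from that of filterByExpr, the cause of these shifts was not tested.

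Over the single genes given by mouse or called in the 6 lists, 384 of 436 values kept their sign and side of the limit and 16 turned sign, none of them called. With the ending term these were Stmn2 (-0.064), Snap25 (-0.28), Ncam1 (-0.060) and Tac1 (-0.15), and with L2 libraries only -0.052, -0.27, -0.051 and -0.14. With the smooth muscle term they were Stmn2 (-0.11), Ncam1 (-0.025) and Tac1 (-0.037), and with the Slc10a2 term Stmn2 (-0.049). With a mouse left out, Stmn2 ranged from -0.094 to 0.18, Snap25 from -0.066 to 0.76 and Elavl4 from -0.40 to 0.0010.

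Same-numbered mice of the 2 groups are not the same animals. The replicate block called the same number, 2 neuronal genes (Nos1 and Ret), of 1152 genes in all (6.66%), in 8 mice. Correlations of same-numbered mice were -0.022, 0.048, 0.15 and 0.15, against -0.36 to 0.24 for other numbers. No standard mouse correlated best with its own number, but 4 shared numbers are too few to exclude a pairing. Counts per gene limit what could be seen, since only 16 of the 31 genes had more than 3 counts in every mouse.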

Other observations

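Nos1 gave 71.4% to 97.0% of the counts of Nos1 and Chat together in each mouse, a share looked at after the values were seen. It was 96.0% or more in WT_EE mice 1 and 4, and lowest, at 71.4%, in WT_SE mice 2 and 3, where the exact binomial 95% intervals of 51.3% to 86.8% and 29.0% to 96.3% were wide. Nos1 and Vip together stood at 60.7 to 117 CPM in WT_SE and 97.4 to 123 CPM in WT_EE, and Chat and Slc18a3 together at 10.1 to 41.7 CPM and 2.17 to 24.3 CPM.

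Of the other cell-type lists, none of 10 epithelial genes was called (3779 to 4806 CPM in WT_SE, 3565 to 4586 CPM in WT_EE). Among 3 genes of interstitial pacemaker cells, which link neurons to muscle, Etv1 was called higher in WT_EE (log2 fold change 0.60, p = 0.0491 in edgeR, exact permutation p = 0.0635). Kit, of the same list, went the other way, with a mean of 139 CPM in WT_SE and 116 CPM in WT_EE. It was not called in edgeR, at a log2 fold change of -0.25, while its exact permutation p was 0.0238. Ano1 was at 0.42 and not called (exact permutation p = 0.206), so the 3 genes did not move together. Fat genes summed to 1151 CPM in WT_SE mouse 1, the mouse with the lowest neuronal sum, and to 86.1 to 628 CPM elsewhere. Plin1 was called lower in WT_EE, but had 25, 0, 3 and 1 counts in WT_SE and 0 to 7 in WT_EE (exact permutation p = 0.437). B-cell follicle genes were called lower in WT_EE for 3 of 6 tested (Cr2, Ms4a1 and Cd79b), against 3.34% of all genes. The list summed to 67.7 and 77.8 CPM in WT_SE mice 1 and 2 and at most 12.99 CPM elsewhere, so these calls rest largely on the same mice. Cd79b had at most 3 counts in any mouse. The exact permutation p was 0.0476 for Cr2, 0.151 for Ms4a1 and 0.167 for Cd79b. Of the mesothelial genes Upk3b was called lower in WT_EE, with 6, 1, 0 and 2 counts in WT_SE and 0 to 1 in WT_EE (exact permutation p = 0.127). Of the posterior Hox genes Hoxa11 was called higher in WT_EE (exact permutation p = 0.0873) and Hoxd11 lower (exact permutation p = 0.103). The sum of all 8 posterior Hox genes was 165 to 341 CPM. As described above, it does not rank the mice by position along the colon.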
